A study of Mus musculus with 20 samples.

Results

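The genes described here are p53 and 9 of its transcriptional targets that act in growth arrest and in feedback: Trp53 itself, Mdm2, Mdm4, Cdkn1a, Btg2, Ccng1, Plk2, Sesn1, Trp53inp1 and Zmat3. They were taken as the probes whose transcript accession belongs to these genes, which gave 13 of the 39429 non-control probes on the array and 10 of its 21612 gene symbols. All 10 genes were measured, that is, above background on at least 3 arrays, among 18739 genes tested. Total RNA came from B16 Bcr-Abl+ cells, a mouse melanoma line that carries the Bcr-Abl kinase and for which the labels give the strain as mouse C3H eOuJ. Plasmids encoding forms of murine p65/RelA, a subunit of the transcription factor NF-kB, had been introduced into the cells. The N+C group (5 arrays) received both pieces of p65, the piece of residues 1 to 361 and that of residues 362 to 549. The N-fragment group received only the piece that ends at residue 361, and the C-fragment group only the piece that begins at residue 362. The other groups received a full-length form that is not cleavable (D361E), the wild-type protein (WT) or an empty plasmid (void). Apart from N+C each group had 3 arrays. All groups, the void cells included, carry Bcr-Abl. The labels do not say whether replicates were separate cultures, whether the transfections were transient or stable, or which promoter drove the constructs, so the p-values rest on the spread between arrays, which may be technical.

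p53 is a transcription factor that responds to DNA damage and other stress, and its activity is controlled mainly through the stability and modification of the protein rather than through its mRNA. Among its targets are Mdm2, the ubiquitin ligase that marks p53 for degradation and so closes a feedback loop, and Cdkn1a, which encodes the cyclin-dependent kinase inhibitor p21 and halts the cell cycle. NF-kB and p53 share coactivators and are both switched on by stress.

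Signals are given as log2 of the intensity relative to the 75th percentile of the same array, so 0 is that percentile and a difference of 1 is a doubling, and levels are compared only within a probe. Of the 43020 non-control spots, 51.1 to 57.9% were well above background per array, and the number of arrays limits the precision. Differences carry their standard error from a limma fit over all 20 arrays, and a gene was called where its Benjamini-Hochberg adjusted p over all genes tested was under 0.05. The 5 comparisons with void share the same 3 void arrays. All 12 melanocyte markers were measured, and 11 of them were above background on every array. Of the 12 haematopoietic markers 4 were measured, and Ptprc was above background on no array. Arrays 4 and 5 of N+C stood apart from arrays 1 to 3, with root mean square log2 differences of 0.735 to 0.898 between the sets, against 0.505 to 0.574 within them and 0.491 to 0.703 between arrays of the other groups. Calls that change when either set is used alone are given with the genes or together after them. Rela signal was called higher than void only for the N-fragment, at 4.51, 4.69 and 4.39 on the N-fragment arrays, against 4.17, 4.14 and 4.19 on the void arrays (log2 difference 0.36 ± 0.07, adjusted p = 0.00089). The other differences from void were 0.18 with N+C, 0.08 with the C-fragment, 0.08 with D361E and 0.07 with WT. Whether the Rela probe reads the constructs, the cell's own gene or both is not known, as no probe sequence was available. These signals therefore do not show how far the constructs were expressed.

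Promoter windows were read for 8 of the 10 genes (11 windows, 250 bases before to 50 bases after a start, GRCm38.p6, RefSeq). The p53 response element is a pair of decamers, searched on both strands with no spacer and at most 1 mismatch. It occurred in 29 of 32851 promoter windows of the mouse genome (0.0883%), and in the windows of Cdkn1a and Ccng1 among these genes. A single decamer without mismatch was in 8.36% of all windows, and the 5 windows of these genes that held one include those of Cdkn1a and Ccng1. The Cdkn1a element, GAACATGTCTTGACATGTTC, lies 51 to 32 bases before the upstream start. In Ccng1 the element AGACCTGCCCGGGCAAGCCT lies 195 to 176 bases before the start. A kB site, the motif read by NF-kB, was in 8.46% of all windows and in 1 window of these genes. It was GGGACTTTCC in the Trp53 window, spanning the start from base -5 to base 5. A match says only that the letters are there. The 4 stretches below are shown because they hold these elements and because RefSeq lists 2 Cdkn1a starts, 2790 bases apart, for a gene whose 2 probes gave different values. Capitals mark the motif matches, and each stretch is 5′ to 3′ on the gene's strand. They are chr17:29090729-29090978 (+) and chr17:29093519-29093768 (+) for Cdkn1a, chr11:40755287-40755536 (-) for Ccng1 and chr11:69580109-69580363 (+) for Trp53.
Cdkn1a upstream start: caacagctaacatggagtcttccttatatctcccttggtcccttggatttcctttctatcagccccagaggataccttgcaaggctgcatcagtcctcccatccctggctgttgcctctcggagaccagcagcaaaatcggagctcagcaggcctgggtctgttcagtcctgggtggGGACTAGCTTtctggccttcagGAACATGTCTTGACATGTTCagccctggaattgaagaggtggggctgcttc
Cdkn1a downstream start: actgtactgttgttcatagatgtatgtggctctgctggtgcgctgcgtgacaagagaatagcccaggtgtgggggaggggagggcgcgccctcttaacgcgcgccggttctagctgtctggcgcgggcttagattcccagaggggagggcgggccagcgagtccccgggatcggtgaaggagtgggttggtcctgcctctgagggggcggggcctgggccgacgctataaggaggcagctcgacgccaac
Ccng1: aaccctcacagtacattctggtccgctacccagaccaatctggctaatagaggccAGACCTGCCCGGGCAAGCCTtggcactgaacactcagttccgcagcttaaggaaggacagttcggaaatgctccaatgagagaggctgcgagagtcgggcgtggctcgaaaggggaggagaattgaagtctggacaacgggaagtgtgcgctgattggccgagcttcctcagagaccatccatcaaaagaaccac
Trp53: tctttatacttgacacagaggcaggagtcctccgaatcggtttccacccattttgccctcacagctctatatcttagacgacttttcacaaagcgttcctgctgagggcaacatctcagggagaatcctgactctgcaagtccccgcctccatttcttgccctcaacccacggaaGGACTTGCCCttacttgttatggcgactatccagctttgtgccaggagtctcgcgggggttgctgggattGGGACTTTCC

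Most of the targets were lower with every p65 construct than with void plasmid. Of the 10 genes, 8 were called lower with N+C (12.8% of all genes tested were), 7 with the N-fragment (17.9% of all genes), 7 with the C-fragment (8.24%), 8 with D361E (7.44%) and 8 with WT (6.16%). A higher call occurred once, for Trp53 with the N-fragment, where 13.2% of all genes were called higher. Mdm2, Cdkn1a, Btg2, Ccng1, Sesn1 and Trp53inp1 were called lower in all 5 comparisons, 6 of 10 genes against 1.35% of all genes. For 7 genes, those 6 and Zmat3, each of the 17 construct arrays lay below each of the 3 void arrays, which held for 3.79% of all genes. The median log2 difference of the 10 genes from void was -0.98 with N+C, -1.10 with the N-fragment, -0.62 with the C-fragment, -1.37 with D361E (unchanged with Plk2 at the nominal bound given below) and -0.98 with WT, and that of all genes was between -0.06 and -0.02 in each of the 5. Tested for any difference among the 6 groups, 8 of the 10 genes were called (45% of all genes), and Trp53 (adjusted p = 0.229) and Mdm4 (adjusted p = 0.159) were not. Without scaling between arrays the median of all genes rose by 0.12 to 0.37 against void. The calls were then 2 higher (Trp53 and Mdm4) and 6 lower for WT and for the N-fragment. They were 4 lower for the C-fragment, 7 lower for N+C and 8 lower for D361E. The shares of all genes given above are of scaled values and are no background for these unscaled counts. Unscaled differences from void that stayed called but moved by over 1.5 times were those of Trp53 (0.95) and Cdkn1a (-0.65) with the N-fragment, Ccng1 with the C-fragment (-0.45) and WT (-0.53), and Zmat3 with WT (-0.63). As RNA was taken from whole cultures, fewer cells expressing a gene and less RNA per cell cannot be told apart.

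**Figure D1:**
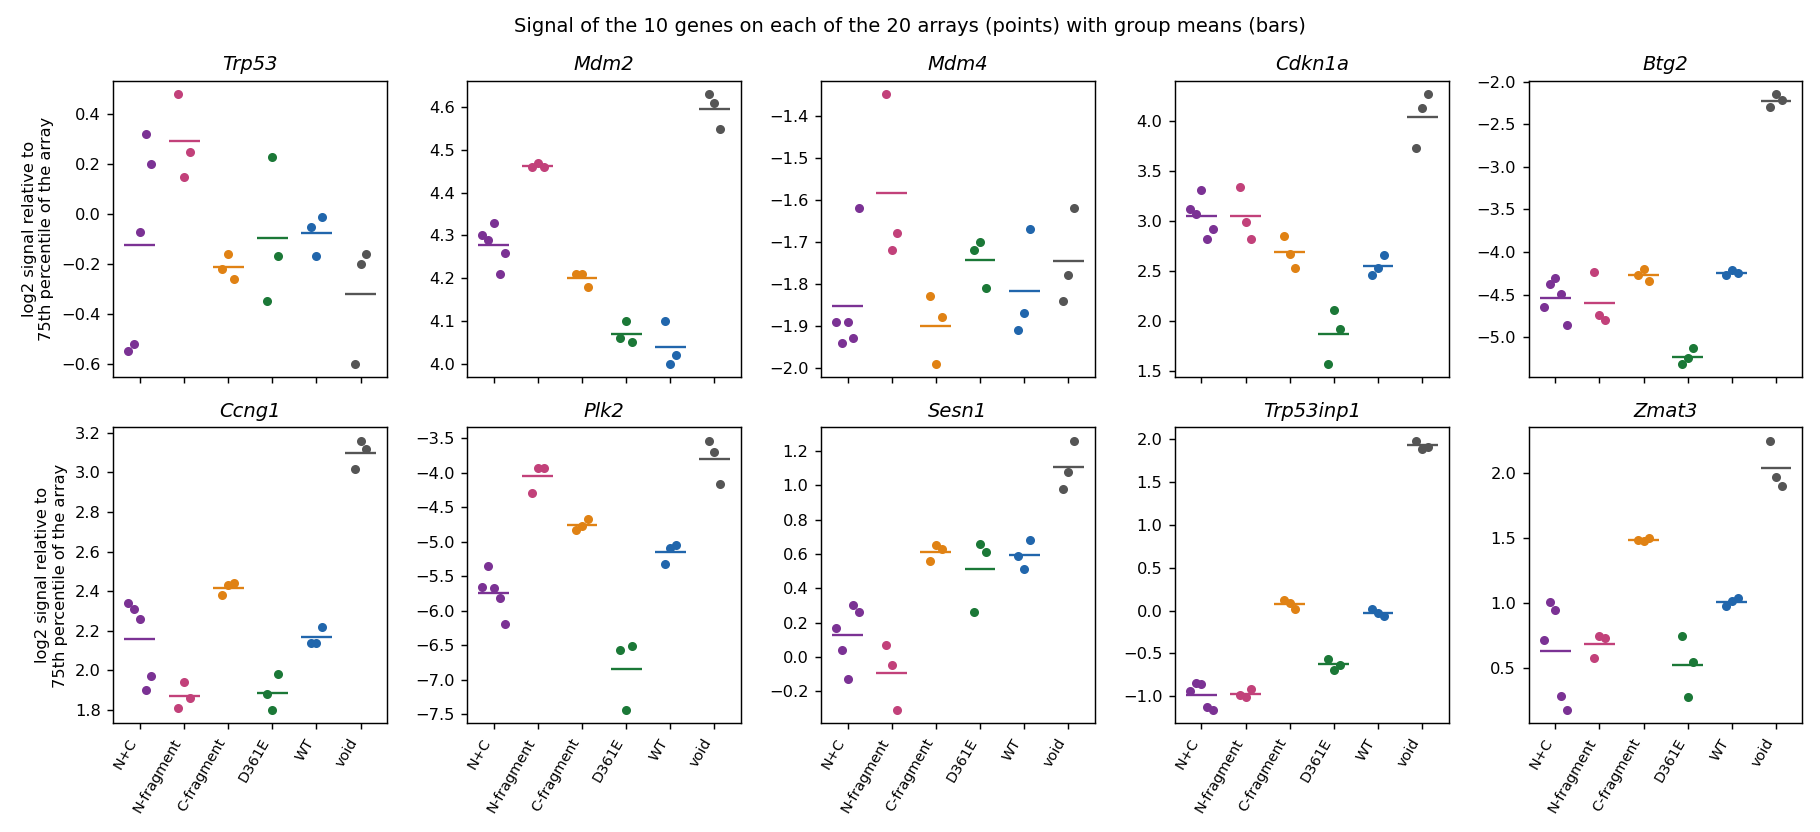
Signal of the 10 genes on each of the 20 arrays, as log2 relative to the 75th percentile of the array (y axis, own scale per gene), by group (x axis), with a bar at each group mean. The void points lie above every other point for Mdm2, Cdkn1a, Btg2, Ccng1, Sesn1, Trp53inp1 and Zmat3, and among the other groups for Trp53 and Mdm4.

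**Figure D2:**
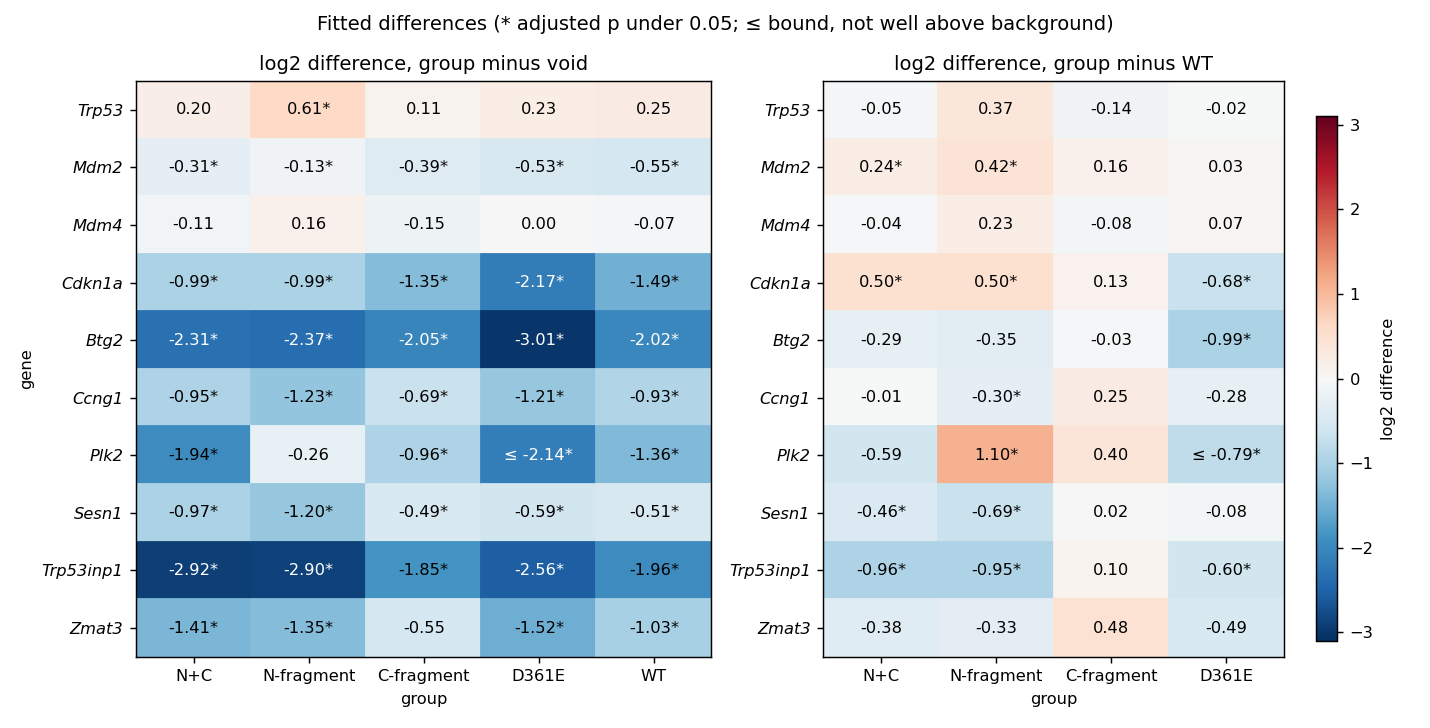
Fitted log2 differences of the 10 genes (rows) from void for 5 groups and from WT for 4 groups (columns), with an asterisk where the adjusted p was under 0.05. Measured differences from void reach -3.01 for Btg2 with D361E. Plk2 with D361E is shown at nominal bounds of -2.14 against void and -0.79 against WT, which are not strict limits. Lower calls fill 38 of the 50 cells in the void panel, and no C-fragment difference from WT is called.

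Trp53 mRNA was not called lower than void with any construct. Its signal was -0.55, -0.52, -0.07, 0.32 and 0.20 with N+C, 0.48, 0.15 and 0.25 with the N-fragment and -0.22, -0.16 and -0.26 with the C-fragment. On the other arrays it was -0.35, 0.23 and -0.17 with D361E, -0.05, -0.17 and -0.01 with WT, and -0.60, -0.20 and -0.16 with void. The 3 N-fragment arrays all lay above the void arrays, while the remaining groups overlapped void. The N-fragment difference from void was 0.61 ± 0.21 (adjusted p = 0.038, n = 3 each, limma). That call was lost when void array 1 or 2 or any N-fragment array was left out (adjusted p = 0.0514 to 0.15, log2 0.47 to 0.68). Differences of the other groups from void were between 0.11 (C-fragment) and 0.25 (WT), and none was called. Without scaling, WT was called higher than void (0.64, adjusted p = 0.0125). Within N+C, arrays 4 and 5 lay above arrays 1 to 3. These sets of arrays did not overlap, in either direction, for 60.8% of 18672 genes compared.

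Mdm2, the ubiquitin ligase of the feedback loop, was lower than void with every construct, by small but tight margins, and least so with the N-fragment. It read 4.30, 4.29, 4.33, 4.21 and 4.26 with N+C, 4.46, 4.47 and 4.46 with the N-fragment and 4.21, 4.21 and 4.18 with the C-fragment. The D361E arrays read 4.06, 4.10 and 4.05, the WT arrays 4.10, 4.00 and 4.02, and the void arrays 4.63, 4.61 and 4.55. No construct array reached the void arrays, and the order of the groups was void, N-fragment, N+C, C-fragment, D361E and WT. The differences from void were -0.31 ± 0.04 with N+C (adjusted p = 4.18e-05), -0.13 ± 0.05 with the N-fragment (0.0374), -0.39 ± 0.05 with the C-fragment (4.53e-05), -0.53 ± 0.05 with D361E (1.21e-06) and -0.55 ± 0.05 with WT (1.66e-06), all limma adjusted p. Set against WT, Mdm2 was higher with N+C (0.24 ± 0.04, adjusted p = 0.000492) and with the N-fragment (0.42 ± 0.05, adjusted p = 4.09e-06), and N+C was below the N-fragment (-0.18 ± 0.04, adjusted p = 0.00435). D361E and WT were not told apart (0.03 ± 0.05, adjusted p = 0.787), nor were the C-fragment and WT (0.16 ± 0.05, adjusted p = 0.0634). The N-fragment call against void was lost when void array 1 or 2 or any N-fragment array was left out (adjusted p = 0.0747 to 0.11, log2 -0.14 to -0.12), and without scaling the difference was 0.20 (adjusted p = 0.108). Unscaled values also ended the Mdm2 calls against void for N+C, the C-fragment and WT (log2 -0.10, -0.16 and -0.16), while the D361E call held. The N+C call against WT was lost unscaled (0.06) and with normexp and quantile normalization (0.07).

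Mdm4, a relative of Mdm2 that binds p53 and blocks its activity, was not called against void or WT in any group with its brighter probe. Its levels ran from -1.94 to -1.62 with N+C, -1.72 to -1.35 with the N-fragment, -1.99 to -1.83 with the C-fragment, -1.81 to -1.70 with D361E, -1.91 to -1.67 with WT and -1.84 to -1.62 with void. No group was clear of void. Without scaling, this probe was called higher than void with the N-fragment (0.49, adjusted p = 0.00252) and with WT (0.33, adjusted p = 0.0325). A second, dimmer Mdm4 probe was called in comparisons where the brighter was not. It was higher than void with the N-fragment (0.76 ± 0.14, adjusted p = 0.000749) and with WT (0.57 ± 0.14, adjusted p = 0.0209) and lower than WT with N+C (-0.42 ± 0.13, adjusted p = 0.0266). The brighter probe had the same sign for the N-fragment against void (0.16) and N+C against WT (-0.04), and the other sign for WT against void (-0.07). Both probes carry the same accession, so the calls for Mdm4 rest on the probe chosen. With the mean of both, the N-fragment was called higher than void (0.46, adjusted p = 0.0002) and WT (0.21, adjusted p = 0.0462). N+C was then lower than WT (-0.23, adjusted p = 0.0215) and the N-fragment (-0.44, adjusted p = 0.000171).

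Cdkn1a, the gene of p21, was lower than void with all constructs, and lowest with D361E. The probe that represents it read 3.12, 3.07, 3.31, 2.82 and 2.92 with N+C, 3.34, 2.99 and 2.82 with the N-fragment and 2.85, 2.67 and 2.53 with the C-fragment. It read 1.57, 2.11 and 1.92 with D361E, 2.46, 2.53 and 2.66 with WT, and 3.73, 4.12 and 4.26 with void. All 17 construct arrays were below the void arrays, and the D361E arrays were below those of every other group. The differences from void were -0.99 ± 0.15 with N+C (adjusted p = 0.000205), -0.99 ± 0.17 with the N-fragment (0.000357), -1.35 ± 0.17 with the C-fragment (9.59e-05), -2.17 ± 0.17 with D361E (4.68e-07, 4.50-fold lower) and -1.49 ± 0.17 with WT (4.74e-05), all limma adjusted p. In the order void, N-fragment, N+C, C-fragment, WT and D361E, the neighbours that differed were the N-fragment and void, and D361E and WT (-0.68 ± 0.17, adjusted p = 0.0336). N+C and the N-fragment were each 0.50 above WT (adjusted p = 0.0273 and 0.0405). These 3 calls against WT were not firm. The D361E call was lost without any WT array or without D361E array 1 or 3 (adjusted p = 0.0737 to 0.126, log2 -0.73 to -0.53). The N+C call was lost without WT array 1 or 2 or N+C array 1 or 3 (adjusted p = 0.0529 to 0.11, log2 0.43 to 0.49), and with N+C arrays 4 and 5 alone (0.32, adjusted p = 0.223). That of the N-fragment was lost without any WT array or N-fragment array 1 or 2 (adjusted p = 0.0536 to 0.182, log2 0.36 to 0.56).

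The second Cdkn1a probe, which carries the accession NM_001111099 where the first carries NM_007669, fell further and placed the groups in another order. It read -3.53, -3.53, -3.33, -3.52 and -3.50 with N+C, -3.35, -3.43 and -3.81 with the N-fragment and -2.49, -2.62 and -2.76 with the C-fragment. Its values were -4.08, -3.61 and -4.06 with D361E, -2.82, -3.02 and -3.07 with WT, and -0.44, -0.20 and -0.13 with void. The groups with the N-fragment in them lay below WT here, where the first probe put them above it. The differences from void were -3.22 ± 0.12 with N+C, -3.28 ± 0.14 with the N-fragment, -2.37 ± 0.14 with the C-fragment, -3.66 ± 0.14 with D361E and -2.71 ± 0.14 with WT (adjusted p = 3.94e-08 or less, limma over all probes). The same 5 comparisons called 24.5%, 31%, 13%, 13.3% and 8.95% of all probes. Relative to WT the probe was lower with N+C (-0.51 ± 0.12, adjusted p = 0.00721), with the N-fragment (-0.56 ± 0.14, adjusted p = 0.00614) and with D361E (-0.95 ± 0.14, adjusted p = 0.000594), and these comparisons called 23%, 27.2% and 4.05% of all probes. The log2 ratio of the second probe to the first within an array fell against void by 2.23 with N+C, 2.29 with the N-fragment, 1.01 with the C-fragment, 1.49 with D361E and 1.23 with WT, and no construct array overlapped the void arrays. By exact permutation over arrays, two-sided, p was 0.0179 for N+C and 0.1 for each of the other 4, the smallest these group sizes allow, and 0.0895 and 0.1 after adjustment over the 5. With the mean of both probes the N+C and N-fragment differences were -2.11 and -2.13 from void and -0.01 and -0.03 from WT. Apart from that mean, neither the second probe, which is dimmer than the first, nor the ratio was run under the alternatives. How far their sizes depend on the processing was therefore not tested. Which of the 2 starts shown above belongs to which accession is not in the tables used here.

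**Figure D3:**
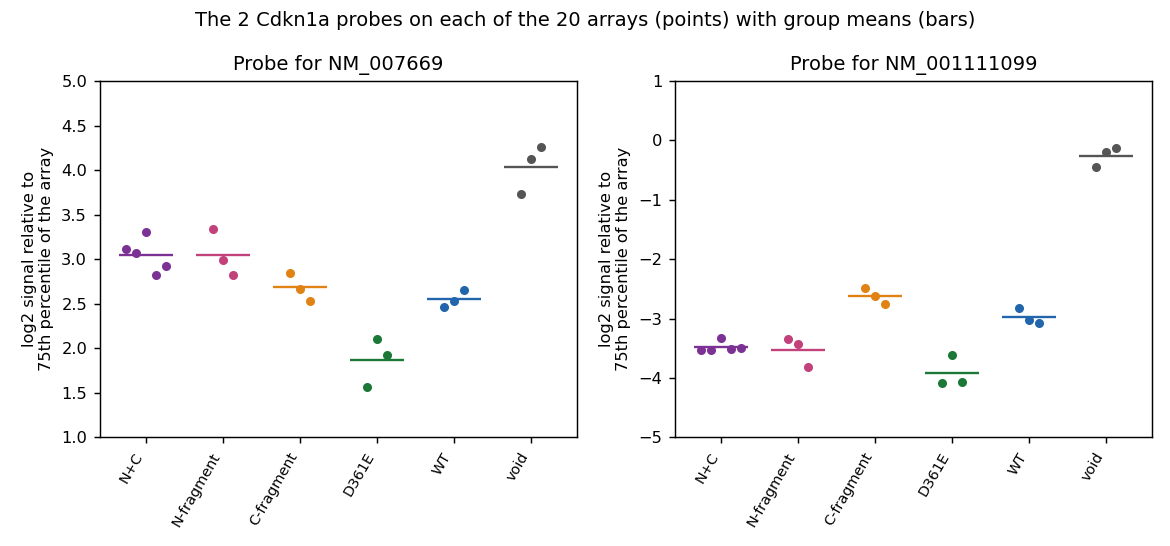
Signal of the 2 Cdkn1a probes on each of the 20 arrays, as log2 relative to the 75th percentile of the array (y axis, own scale per probe), by group (x axis), with a bar at each group mean. N+C and N-fragment points lie above the WT points for the NM_007669 probe and below them for the NM_001111099 probe, and void is highest for both.

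Btg2, an antiproliferative gene whose protein recruits mRNA deadenylases, was lower than void with every construct, and lowest with D361E. It read -4.65, -4.37, -4.30, -4.49 and -4.86 with N+C, -4.24, -4.74 and -4.80 with the N-fragment and -4.27, -4.20 and -4.34 with the C-fragment. The remaining arrays read -5.31, -5.25 and -5.13 with D361E, -4.27, -4.21 and -4.25 with WT, and -2.30, -2.15 and -2.22 with void. Void stood clear of every construct array at the top, and D361E stood clear at the bottom. The fall from void was 4.96-fold with N+C (-2.31 ± 0.13), 5.16-fold with the N-fragment (-2.37 ± 0.14), 4.13-fold with the C-fragment (-2.05 ± 0.14), 8.03-fold with D361E (-3.01 ± 0.14) and 4.05-fold with WT (-2.02 ± 0.14), each with adjusted p = 2.7e-07 or less (limma). D361E was lower than WT (-0.99 ± 0.14, adjusted p = 0.000458), and the other 3 groups were not called against WT (-0.35 to -0.03). Every alternative kept the Btg2 calls against void and the D361E call against WT, but not their size. With normexp background correction (offset 50) and quantile normalization the differences from void were -1.01 with N+C, -1.02 with the N-fragment, -0.92 with the C-fragment, -1.22 with D361E and -0.95 with WT, and D361E was -0.26 from WT. Without scaling, N+C (-0.48) and the N-fragment (-0.41) were called lower than WT.

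Ccng1 encodes cyclin G1, which binds a phosphatase subunit and acts on Mdm2 rather than driving the cycle. Its signal was 2.34, 2.31, 2.26, 1.90 and 1.97 with N+C, 1.81, 1.94 and 1.86 with the N-fragment and 2.38, 2.43 and 2.44 with the C-fragment. It was 1.88, 1.80 and 1.98 with D361E, 2.14, 2.14 and 2.22 with WT, and 3.02, 3.16 and 3.12 with void. Every void array lay above every construct array, and the N-fragment and D361E were the lowest groups. The differences from void were -0.95 ± 0.09 with N+C, -1.23 ± 0.10 with the N-fragment, -0.69 ± 0.10 with the C-fragment, -1.21 ± 0.10 with D361E and -0.93 ± 0.10 with WT, with adjusted p = 0.000347 or less in limma. The N-fragment was 0.30 below WT (-0.30 ± 0.10, adjusted p = 0.0392), a call lost without any 1 of the 6 arrays compared (adjusted p = 0.0509 to 0.118, log2 -0.33 to -0.26). N+C was above the N-fragment (0.28 ± 0.09, adjusted p = 0.0334), lost without any N-fragment array or N+C array 1, 2 or 3 (adjusted p = 0.0544 to 0.113, log2 0.24 to 0.32), and 0.06 with N+C arrays 4 and 5 alone, against 0.43 with arrays 1 to 3.

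Plk2, a polo-like kinase of the centrosome cycle, differed widely between the constructs. It read -5.66, -5.36, -5.68, -5.82 and -6.20 with N+C, -4.30, -3.93 and -3.94 with the N-fragment and -4.83, -4.77 and -4.68 with the C-fragment. It read -6.57, -7.44 and -6.51 with D361E, -5.33, -5.09 and -5.05 with WT, and -3.54, -3.70 and -4.16 with void. The N-fragment overlapped void, and the other 4 groups lay below both. The probe was above background on 13 of the 20 arrays. It was not well above background on any D361E array. D361E was therefore raised to the lowest signal of any probe well above background on the same array. At that level it was 4.42-fold lower than void (measured log2 means -6.84 and -3.80, adjusted p = 3.97e-07). Against WT it was 1.73-fold lower (measured means -6.84 and -5.16, adjusted p = 0.00039). The p-values are limma values for the measured signals. A probe can fall short of well above background at a higher signal, so these folds are nominal bounds, not strict limits. N+C was above background on 1 of 5 arrays, so its size rests on signals near background. Its measured level was lower than that of void (-1.94 ± 0.21, adjusted p = 7.11e-06), the N-fragment (-1.69 ± 0.21, adjusted p = 2.61e-05) and the C-fragment (-0.98 ± 0.21, adjusted p = 0.00415). The N-fragment was higher than WT (1.10 ± 0.24, adjusted p = 0.00225) and not called against void (-0.26 ± 0.24, adjusted p = 0.465). WT was lower than void (-1.36 ± 0.24, adjusted p = 0.00189). The C-fragment was lower too (-0.96 ± 0.24, adjusted p = 0.0136), a call lost without void array 2 (-0.91, adjusted p = 0.0529) and without scaling (-0.72, adjusted p = 0.0882). With normexp and quantile normalization the calls held at smaller sizes. D361E was then -0.64 from void and -0.25 from WT, both closer to 0 than the nominal bounds above. N+C was -0.48 from void, -0.44 from the N-fragment and -0.19 from the C-fragment. The N-fragment was 0.34 above WT, and WT and the C-fragment were -0.39 and -0.29 from void.

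Sesn1 encodes a stress protein that restrains mTORC1 signalling and oxidative damage. Its values were 0.17, 0.04, -0.13, 0.30 and 0.26 with N+C, 0.07, -0.05 and -0.31 with the N-fragment and 0.56, 0.65 and 0.63 with the C-fragment. They were 0.26, 0.66 and 0.61 with D361E, 0.59, 0.51 and 0.68 with WT, and 0.98, 1.08 and 1.26 with void. Each construct array was below void, and N+C and the N-fragment lay below WT without overlap. The differences from void were -0.97 ± 0.11 with N+C (adjusted p = 1.48e-05), -1.20 ± 0.13 with the N-fragment (2.88e-06), -0.49 ± 0.13 with the C-fragment (0.0186), -0.59 ± 0.13 with D361E (0.0052) and -0.51 ± 0.13 with WT (0.0196), all limma adjusted p. The C-fragment call was lost without void array 3 or C-fragment array 1 or 3 (adjusted p = 0.0515 to 0.0881, log2 -0.50 to -0.42), and the WT call without void array 2 or 3 or WT array 1 or 2 (0.0548 to 0.0962, log2 -0.52 to -0.43). N+C was lower than WT (-0.46 ± 0.11, adjusted p = 0.00767) and lower than the C-fragment (-0.48 ± 0.11, adjusted p = 0.00817). Without scaling both calls against void were lost as well (-0.26 with the C-fragment and -0.11 with WT), and with slide as a fixed block they held at -0.30 and -0.32. With N+C arrays 4 and 5 alone the N+C differences from WT and the C-fragment were -0.31 (adjusted p = 0.0902) and -0.33 (adjusted p = 0.0911). The N-fragment was lower than WT (-0.69 ± 0.13, adjusted p = 0.00068).

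Trp53inp1, whose protein acts in the nuclear stress response and in autophagy, had the lowest difference from void among the 10 genes with N+C and with the N-fragment, by the probe that represents each gene. It read -0.94, -0.85, -0.86, -1.12 and -1.16 with N+C, -0.99, -1.01 and -0.92 with the N-fragment and 0.12, 0.09 and 0.02 with the C-fragment. It read -0.56, -0.69 and -0.63 with D361E, 0.02, -0.03 and -0.06 with WT, and 1.98, 1.89 and 1.91 with void. The groups fell into steps that did not overlap, void above C-fragment and WT, D361E below them, and N+C and the N-fragment at the bottom. Relative to void the signal was 7.55-fold lower with N+C (-2.92 ± 0.07), 7.48-fold lower with the N-fragment (-2.90 ± 0.08), 3.61-fold lower with the C-fragment (-1.85 ± 0.08), 5.88-fold lower with D361E (-2.56 ± 0.08) and 3.88-fold lower with WT (-1.96 ± 0.08), with adjusted p = 8.64e-10 or less (limma). N+C (-0.96 ± 0.07, adjusted p = 9.59e-08), the N-fragment (-0.95 ± 0.08, adjusted p = 1.81e-07) and D361E (-0.60 ± 0.08, adjusted p = 0.000199) were lower than WT. N+C was also 1.06 below the C-fragment (-1.06 ± 0.07, adjusted p = 5.58e-08), and did not differ from the N-fragment beyond the error (-0.01 ± 0.07, adjusted p = 0.931). A second, dimmer Trp53inp1 probe was called in the same direction in each of these comparisons with void and WT, and no alternative ended the calls of the first.

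Zmat3, a zinc finger gene whose protein binds RNA, was called lower than void with 4 of the constructs. It had levels of 0.72, 1.01, 0.95, 0.29 and 0.18 with N+C, 0.58, 0.75 and 0.73 with the N-fragment and 1.49, 1.48 and 1.5 with the C-fragment. The levels were 0.75, 0.28 and 0.55 with D361E, 0.98, 1.02 and 1.04 with WT, and 2.25, 1.97 and 1.90 with void. All construct arrays were below void, the C-fragment arrays nearest to it. N+C arrays 4 and 5 lay below the other 3, and these sets did not overlap, in either direction, for 60.8% of genes compared. Zmat3 was lower than void with N+C (-1.41 ± 0.17, adjusted p = 1.52e-05), the N-fragment (-1.35 ± 0.19, adjusted p = 3.99e-05), D361E (-1.52 ± 0.19, adjusted p = 4.14e-05) and WT (-1.03 ± 0.19, adjusted p = 0.00251). The C-fragment difference of -0.55 ± 0.19 was not called (adjusted p = 0.063). Several alternatives did call it lower. It was -0.79 with slide as a fixed block (adjusted p = 0.00329) and -0.67 with slide as a random block (adjusted p = 0.00818). N+C was lower than the C-fragment (-0.86 ± 0.17, adjusted p = 0.00189).

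The choice of N+C arrays made further calls. With arrays 4 and 5 alone, N+C was higher than void for Trp53 (0.58, adjusted p = 0.0179). It was then lower than WT for Btg2 (-0.43, adjusted p = 0.0431), Ccng1 (-0.23, adjusted p = 0.0167), Plk2 (-0.85, adjusted p = 0.0269) and Zmat3 (-0.78, adjusted p = 0.000438). Against the N-fragment it was higher for Sesn1 (0.38, adjusted p = 0.0449) and lower for Trp53inp1 (-0.17, adjusted p = 0.0365) and Zmat3 (-0.45, adjusted p = 0.0147), and against the C-fragment it was lower for Ccng1 (-0.48, adjusted p = 0.000181). With arrays 1 to 3 alone, N+C was lower than the N-fragment for Trp53 (-0.67, adjusted p = 0.0054) and Mdm4 (-0.32, adjusted p = 0.0179) and higher than the C-fragment for Cdkn1a (0.48, adjusted p = 0.0427). None of these differences was called with all 5 N+C arrays as processed throughout. Other alternatives with all 5 did call some of them. N+C was lower than WT for Btg2 (-0.48, adjusted p = 0.00652) and Plk2 (-0.77, adjusted p = 0.0418) without scaling. It was below the N-fragment for Trp53 without scaling (-0.54, adjusted p = 0.031) and for Mdm4 with quantile normalization (-0.29, adjusted p = 0.0474). It was below the C-fragment for Ccng1 with only probes above background on all arrays (-0.26, adjusted p = 0.0481).

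Set against wild-type p65, the constructs split the genes differently. D361E was lower than WT for Cdkn1a, Btg2, Plk2 and Trp53inp1, 4 of the 10 genes, with none higher at an adjusted or an unadjusted p under 0.05 in limma (1.79% of all genes were called lower and 2.42% higher). The median of the 10 genes was -0.39, and that of all genes was 0.01. The N-fragment was higher than WT for Mdm2, Cdkn1a and Plk2 and lower for Ccng1, Sesn1 and Trp53inp1 (13.8% of all genes higher, 13.5% lower). N+C was higher for Mdm2 and Cdkn1a and lower for Sesn1 and Trp53inp1 (13.6% and 9.67% of all genes), and without scaling 4 genes were lower and none higher. For the C-fragment none of the 10 genes was called against WT by limma, where 4.44% of all genes were (2.09% higher and 2.35% lower). At an unadjusted p under 0.05, 3 were higher (Mdm2, Ccng1 and Zmat3), and between 0 and 3 of the 10 genes were called under the alternatives tried. N+C was above the N-fragment for Ccng1 and below it for Mdm2 and Plk2 (12.6% of all genes higher, 9.51% lower), and in quantile-normalized values 3 genes were lower and none higher. Against the C-fragment, N+C was lower for Plk2, Sesn1, Trp53inp1 and Zmat3 (6.86% of all genes) and called higher for none (10.5%), though Cdkn1a was higher at an unadjusted p under 0.05 (0.36 ± 0.15, limma).

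Among targets of p53 that promote apoptosis, more genes were called lower than higher against void in each of the 5 comparisons. Of 14 such genes 11 were measured, and 7 were lower with N+C, 7 lower and 2 higher with the N-fragment, 5 lower with the C-fragment, 6 lower with D361E and 5 lower with WT. Higher calls were made for 11.8%, 13.2%, 4.88%, 6.04% and 3.22% of all genes in the 5 comparisons, in the same order of groups, and the shares of lower calls are given above. Their median difference from void was -0.37 with N+C, -0.49 with the N-fragment, -0.28 with the C-fragment, -0.43 with D361E and -0.40 with WT. Bbc3, the gene of the BH3-only protein PUMA, was lower in all 5 (-1.13, -1.20, -1.09, -0.90 and -0.69 in the same order of groups). Perp, a membrane protein of desmosomes, was -2.48 with N+C and -3.75 with the N-fragment. Phlda3, an inhibitor of Akt, was lower in all 5 as well (-0.70, -0.77, -0.55, -1.11 and -0.96, same order). Bax, Aen and Pidd1 were also called lower in all 5. Ei24 (1.20) and Siva1 (0.67), both linked to cell death, were the genes that rose with the N-fragment. With D361E, Ei24 was called lower (-0.42).

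Targets in repair, metabolism and stress were mixed, and the shares of all genes called in the same comparisons are those given above. Of the 20 measured, 4 were higher and 7 lower with N+C, 2 higher and 7 lower with the N-fragment, 1 higher and 4 lower with the C-fragment, 1 higher and 6 lower with D361E, and 4 lower with WT, and the list medians were between -0.19 and -0.03. Ddit4, an mTORC1 inhibitor of the stress response, was lower in all 5 comparisons (-2.43, -2.46, -1.90, -2.41 and -1.41), as was Dcxr, a carbonyl reductase (-1.29, -1.02, -0.75, -1.16 and -1.03). Epha2, an ephrin receptor kinase, rose with N+C (2.05) and with the N-fragment (4.52). Gls2, the liver-type glutaminase, rose with N+C (0.42), the N-fragment (0.43), the C-fragment (0.43) and D361E (0.45). Sesn2, the relative of Sesn1, fell with N+C (-0.90), the N-fragment (-1.04), the C-fragment (-0.49) and D361E (-0.94), and was -0.09 with WT.

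Genes that act on p53 were called in both directions, and the shares of all genes called in the same comparisons are those given above. Among 18 measured regulators, 3 were higher and 3 lower with N+C, 2 higher and 3 lower with the N-fragment, 1 each way with the C-fragment, 2 lower with D361E and 1 lower with WT, and the medians were between -0.09 and 0.05. Atm, the kinase that activates p53 after DNA breaks, was higher with N+C (0.68) and the C-fragment (0.40). Chek1, a checkpoint kinase, rose with the N-fragment (1.49) and with N+C (0.43). Sirt1, a deacetylase of p53, was lower with D361E (-0.86) and N+C (-0.40). Cdkn2a, whose product p19Arf holds Mdm2 in check, was above background on no array.

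Family relatives of the 10 genes moved in both directions, and their counts stand beside the same shares of all genes given above. Of 18 measured, 4 were higher and 6 lower with N+C, 2 higher and 6 lower with the N-fragment, 3 higher and 6 lower with the C-fragment, 3 higher and 4 lower with D361E, and 2 higher and 4 lower with WT, with medians between -0.19 and -0.05. Plk3 was higher than void in all 5 comparisons (0.85, 0.72, 0.73, 0.29 and 0.34), where Plk2 was lower in 4. Cdkn1b, the gene of the kinase inhibitor p27, was higher with the C-fragment (0.27), D361E (0.44) and WT (0.54), where Cdkn1a was lower. Ccng2 fell with N+C (-1.13), the N-fragment (-0.49), the C-fragment (-0.98) and D361E (-0.74), and Tob1, a relative of Btg2, fell in all 5 (-1.08, -1.32, -0.68, -1.02 and -0.78).

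Among 15 measured cyclins, cyclin-dependent kinases, RB proteins and E2F factors, 5 were higher and 2 lower with N+C, 5 higher and 1 lower with the N-fragment, 2 higher and 1 lower with the C-fragment, 5 higher and 2 lower with D361E, and 1 higher and 2 lower with WT. The shares of all genes called higher and lower in these comparisons are those given above. E2f1, a transcription factor of S phase entry, was higher with N+C (0.82), the N-fragment (0.74), the C-fragment (0.44) and D361E (0.45). Its difference of 0.22 with WT was not called. Ccnd1, cyclin D1, was higher with N+C (0.78) and the N-fragment (0.42) and lower with D361E (-1.0) and WT (-0.30). Ccnd2, cyclin D2, was lower with N+C (-0.33), the C-fragment (-0.41), D361E (-0.63) and WT (-0.44).

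**Figure D4:**
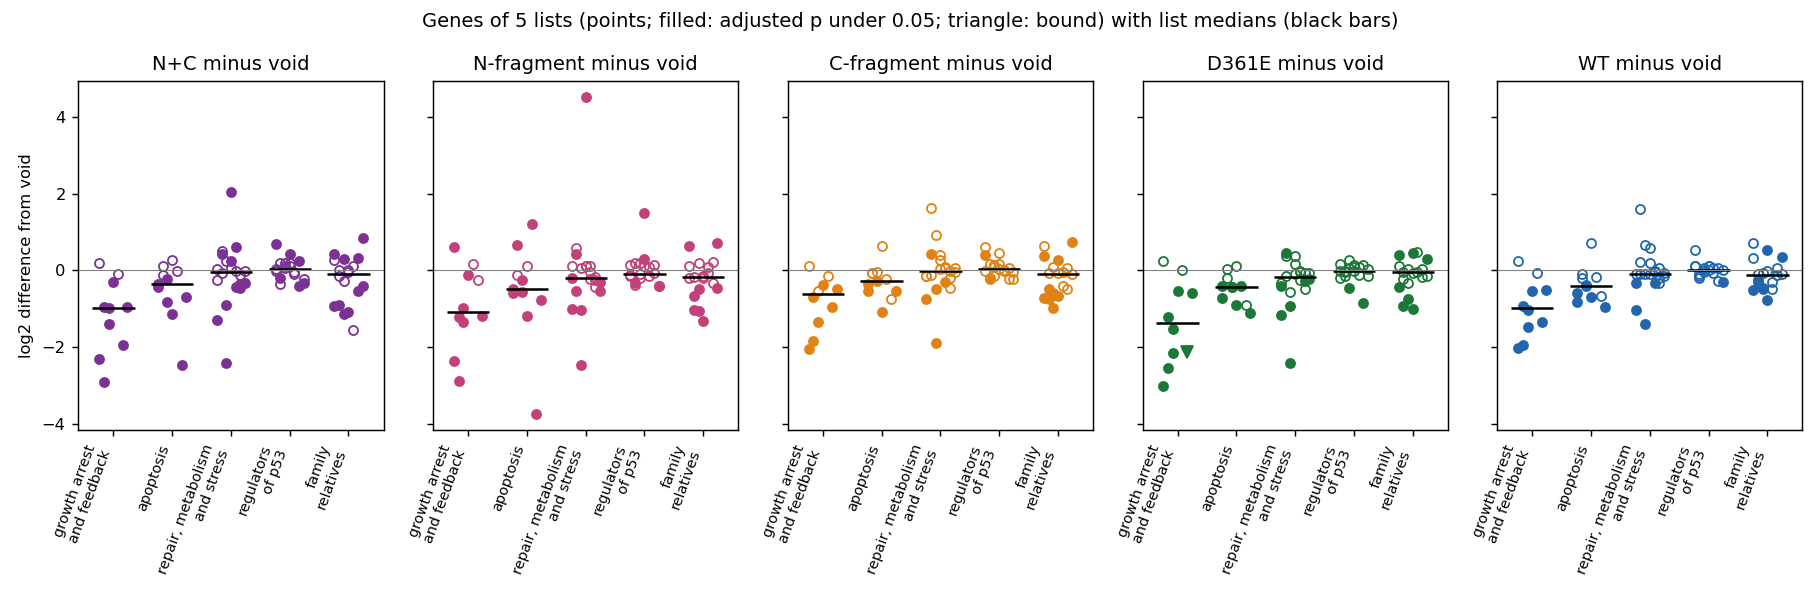
Log2 differences from void (y axis) of the measured genes of 5 lists (x axis), 1 panel per construct, with filled points for an adjusted p under 0.05 and a black bar at each list's median. The growth arrest and feedback genes have the lowest median in each panel, from -1.37 with D361E to -0.62 with the C-fragment, and the medians of the regulators of p53 lie between -0.09 and 0.05. The triangle is Plk2 with D361E at its nominal bound of -2.14, which is not a strict limit.

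Over the 20 arrays, and as a description of 6 groups whose members share their treatment, the genes with the pattern most like Cdkn1a were Ccnd2 (Pearson r = 0.943), Pdzd4 (0.935) and Mdh2 (0.93) among 13768 genes compared. For Btg2 they were Inka2 (0.951), Guf1 (0.942) and Ddit4 (0.925). Mdm2 was followed by Tgif1 (0.91), Sox4 (0.899) and Dnajb6 (0.883), and Trp53 by Foxp4 (0.894), Bod1 (0.883) and Ints11 (0.877).

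Markers of other cells moved with some groups. The summed signal of the 4 measured fibroblast markers, in units of the array's 75th percentile, was 0.183 to 0.67 with N+C, 2.82 to 3.47 with the N-fragment, 0.648 to 0.731 with the C-fragment, 1.18 to 1.62 with D361E, 1.04 to 1.15 with WT and 1.27 to 1.62 with void, and Col3a1, Dcn and Lum were above background on no array. The 4 measured haematopoietic markers summed to 2.88 to 4.18 with N+C, 2.77 to 3.19 with the N-fragment, 3.53 to 4.14 with the C-fragment, 2.66 to 3.87 with D361E, 3.13 to 3.91 with WT and 3.23 to 5.73 with void. The 12 melanocyte markers summed to between 1160 and 1510 on the construct arrays and 1340 and 1440 on the void arrays. Their part in the results was not tested. The 20 arrays sat on 5 slides of 4, each with 3 or 4 of the groups. The 101 differences of called genes that could be taken within a slide had the sign of the fit in 101 of 101. They use the same arrays as the fit and only genes it called, so they are no separate check on the slides.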

How the data were processed

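RNA carried Cy3 and was read on 1-colour Agilent arrays with 44397 features. The deposited scanner files hold intensity values that the authors made with Agilent Feature Extraction 10.7.3.1, per the submitters' processing notes. Their processed signal has the background removed, and the series table holds the same values with no scaling between arrays. Here log2 intensities were centred on the array's 75th percentile (901.4 to 1298.3 intensity units). Outlier spots (98 to 285 per array) were dropped, probes above background on at least 3 of 20 arrays were kept (23433), and a gene was read from its brightest probe. RefSeq accessions gave 72.7% of probes a symbol. Accessions with no symbol were counted as genes of their own (4915 of the 18739 tested). limma 3.58.1 in R 4.3.3 fitted the 6 groups over all 20 arrays (residual df 14, prior df 1.44), with Benjamini-Hochberg adjustment over 18739 genes within each of 11 comparisons. The script was tested on simulated data. The title "Blanck" was taken to mean the void plasmid.

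The genes and the pathway lists were chosen with earlier results of these data known. Named were all 10 genes in every comparison, Rela, up to 3 called genes per direction from each pathway list, and the 3 genes most alike in pattern to Trp53, Mdm2, Cdkn1a and Btg2. Alternatives were other normalizations and filters, the mean of a gene's probes, kept outlier spots, another variance prior, slide as a block, only the groups compared, and each array left out. In the normexp alternative the median rather than the mean spot signal was used (offset 50), because the scanner files hold that column. Either set of N+C arrays alone was an alternative chosen after seeing the data.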

Additional observations from a re-analysis of the deposited data

Results flagged for a closer look

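Of the 10 genes in the 1 group with enough arrays to test, N+C, 1 value stood apart from its group. Mdm4 read -1.62 on N+C array 5, against -1.94 to -1.89 on the other 4 arrays of N+C. Chance flags about 1 group in 20.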

How the results depend on the processing

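Across 2129 values of single genes under the alternatives, 1985 stayed on their side of the threshold, 84 were no longer called, 56 became called and 4 reversed. Among the 1985, 79 differences that were not called changed sign. The 4 that reversed were Mdm4 with WT against void (0.33, unscaled), Mdm2 with the N-fragment against void (0.20, unscaled), and Cdkn1a against WT with the mean of its probes, for the N-fragment (-0.03) and for N+C (-0.01). The mean of the probes moves Cdkn1a by construction, since its 2 probes differ in direction against WT, and the cause was not tested for the others. The number of the 10 genes called moved by over 1.5 times in 8 cases. It was 4 for the C-fragment against void without scaling. For the C-fragment against WT it was 1 with a variance trend and robust prior, 3 with slide as a fixed block, 1 with slide as a random block and 2 with only the groups compared. For N+C against the N-fragment it was 1 with only the groups compared, 5 with N+C replicates 1 to 3 and 5 with N+C replicates 4 and 5. With each array left out in turn, the count was 8 to 8 for N+C, 6 to 8 for the N-fragment, 6 to 7 for the C-fragment, 8 to 8 for D361E and 7 to 8 for WT against void. It was 3 to 6 for N+C, 4 to 5 for the N-fragment, 0 to 0 for the C-fragment and 3 to 4 for D361E against WT, 2 to 4 for N+C against the N-fragment, 4 to 5 for N+C against the C-fragment, and 8 to 8 for any difference among the groups. Higher and lower calls for N+C against the N-fragment were 1 and 2, but 0 and 3 with quantile normalization or with the percentile over probes above background on all arrays, and 0 and 4 without scaling. For N+C against WT they were 2 and 2, but 1 and 2 with normexp and 0 and 4 without scaling. No paired analysis was possible because no replicate number in the titles could pair arrays across groups. Arrays do share slides, and slide as a block and values within slides were run, as given above. Signals of a group below background on all its arrays, as for Plk2 with D361E, give only nominal bounds, and normexp with an offset gave smaller differences for the dim probes of Btg2 and Plk2.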
